A study of Arabidopsis thaliana with 32 samples.

Results

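The regions described here were m6A peaks found in 3 Arabidopsis thaliana genotypes at the same places. They were selected on their presence in 3 peak lists: chosen were the peaks of the tmk4-1 list on chromosomes 1 to 5 that overlapped, by at least 1 bp, a peak of the 35S:FIP37 list and also a peak of the 35S:FIP373A list. The rule kept 394 of 1835 tmk4 peaks (21.5%), which lay in 297 of the 1092 genes with a tmk4 peak. Because the 3 lists chose the peaks, their presence and their scores in those lists are a description and carry no test. The wild-type peak lists and the RNA levels took no part in the choice.

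N6-methyladenosine (m6A) is a methyl mark on adenosines inside messenger RNA, written by a nuclear complex and read by YTH-domain proteins that affect the stability, splicing and translation of the transcript. FIP37 is the Arabidopsis relative of WTAP, a subunit that holds the writer complex together, and the loss of m6A writing is lethal to the plant embryo. TMK4 is a receptor-like kinase of the plasma membrane that takes part in auxin signalling. In plants m6A is known to gather near the stop codon and in the 3' untranslated region.

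All plants were seedlings, 15 days old, and m6A was measured as RNA fragments pulled down with an m6A antibody. The tmk4-1 mutant had received 50 µM NAA, a synthetic auxin, for 3 h. The lines labelled 35S:FIP37 and 35S:FIP373A are named for FIP37, or a form labelled FIP373A, behind the constitutive 35S promoter, and their labels give no treatment. Genotype and treatment therefore cannot be told apart between the tmk4-1 list and the other lists. Each of these genotypes had 2 replicates but 1 deposited peak list, so there is no replicate spread behind a score. Wild type had 4 lists, from 2 replicates with mock and 2 with 50 µM NAA for 3 h. RNA-seq covered wild type and plants labelled fip37 LEC1:FIP37, named for a fip37 mutant with FIP37 behind the embryo promoter LEC1, each under both treatments, with 3 libraries per group. No RNA-seq table of tmk4-1 or of the 35S lines was analysed here, so RNA levels come from other plants than the peaks.

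Shoot markers lay between 462 and 17563 RPKM in all 12 RNA libraries, the root gene PYK10 between 229 and 1231, and 5 seed markers at most at 0.470, while the root markers COBL9, PIN2 and EXP7 did not exceed 9.44. FIP37 stood at 11.3, 12.4 and 11.3 RPKM in the wild-type mock libraries and 23.3, 20.8 and 11.3 with NAA. In libraries labelled fip37 LEC1:FIP37 it stood at 57.9, 87.3 and 91.8 with mock and 58.4, 120.1 and 83.9 with NAA, above every wild-type library, so these libraries held more FIP37 RNA than wild type. TMK4 stood between 29.3 and 34.8 RPKM in wild type and between 13.5 and 16.9 in libraries labelled fip37 LEC1:FIP37. FIP37 carried 1 tmk4 peak, at chr3:20059118-20059369 (TAIR10) with an enrichment score of 4.66, which neither 35S list shared, and TMK4 carried none.

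The 35S:FIP37 list touched 511 tmk4 peaks (27.8%) and the 35S:FIP373A list 471 (25.7%). Another 117 tmk4 peaks overlapped the 35S:FIP37 list alone, 77 the 35S:FIP373A list alone and 1247 neither. Seen from the longer lists, the shared peaks met 396 of 4762 35S:FIP37 peaks (8.32%) and 392 of 4294 35S:FIP373A peaks (9.13%). In all 394 cases the 3 lists named the same gene. The shared peaks were spread over the chromosomes, with 97, 58, 72, 77 and 90 on chromosomes 1 to 5, and over both strands (185 plus, 209 minus).

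The peaks lie on a grid of 50 bp steps, and this set the edge of the rule. The smallest overlap in any of the 394 was 50 bp, which was the case for 231, including peaks of the glutathione transferase gene GSTF7 and of ATNAP4. The peaks named are themselves 50 bp long, so the overlap covered them whole. On the other side, 93 tmk4 peaks missed while directly adjoining a peak, 1 bp from end to start with no base between. Among them were peaks of MEE63 and of the ribosomal protein gene RPL19A. Counted in the same way, 82 more lay 51 to 200 bp away. The shared peaks were 50 to 1459 bp long with a median of 100 bp. Of them 132 (33.5%) were a single step of 50 bp, against 49.6% of the other tmk4 peaks, and 79 (20.1%) ran across more than 1 exon, against 15.8%. A longer peak has more chance to meet another peak, so length is tied to the rule.

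The enrichment score is the authors' own, and here it served to order the peaks of each list. In the tmk4 list the shared peaks had a median of 4.13 (range 1.38 to 33.0), against 3.53 for the whole list, and their median percentile was 57.8. They stood lower in the other lists. Their median was 2.22 in the 35S:FIP37 list (whole list 2.38, percentile 40.9) and 2.202 in the 35S:FIP373A list (whole list 2.37, percentile 41.8). The lists differ in length, so these ranks show no change between genotypes. In all, 234 of the 394 ranked higher in the tmk4 list than in both others and 99 ranked lower than in both.

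The rise of sharing with the tmk4 score stopped before the top. From the lowest to the highest quintile of tmk4 scores, 13.4%, 20.7%, 21.5%, 33.2% and 18.5% of the peaks were shared. The strongest tmk4 peak of all, at 90.7, was not among them. The highest tmk4 scores among the shared peaks were 33.0 in AT1G79010, 23.0 in PGK1, which codes for a phosphoglycerate kinase, and 22.2 in the ribosomal protein gene RPL7B. In the 35S:FIP37 list the same peaks scored 2.13, 2.93 and 2.47.

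Across the 394 peaks the scores of the 35S lists went together (Spearman rho 0.766, Pearson r of log2 scores 0.774). Those of the tmk4 list followed them less closely, with rho 0.419 against 35S:FIP37 and 0.396 against 35S:FIP373A. The points share genes, transcript abundance and, in part, the same 35S peak, and peaks are not replicates. Scores were lower in genes of higher RNA level in all 3 lists, with rho of -0.249, -0.368 and -0.414 over 386 peaks.

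A few peaks ranked high everywhere. The first by mean percentile lay in LHCB3, a light-harvesting protein of photosystem II, at chr5:22038415-22038464, and scored 13.98, 4.50 and 4.67 in the tmk4, 35S:FIP37 and 35S:FIP373A lists. The second lay in TIP1-2, a water channel of the vacuole, at chr3:9723705-9723754, with scores of 6.82, 4.88 and 7.18, the last being the highest of all shared peaks in that list. ADS2, a fatty acid desaturase gene, followed at chr2:13373482-13373581 with 8.69, 4.47 and 4.45. None of these 3 peaks overlapped a wild-type peak. CHY1, which codes for a peroxisomal hydrolase, followed at chr5:26376842-26376891 with 10.1, 3.72 and 3.70, and its peak overlapped 3 of the 4 wild-type lists.

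The others of the first 10 lay in AT3G15450, in the plastid cyclophilin gene ROC4, in CCoAOMT1 of lignin synthesis, in PIP1B, a water channel of the plasma membrane, in PSBW of photosystem II and in PAP26, an acid phosphatase. At the other end, the 5 with the lowest mean percentile lay in GSTF10, PER42, CLPC1, UBQ10 and LHB1B2, with tmk4 scores between 1.38 and 2.05. In all, 91 peaks stood above the median score of all 3 lists and 112 below the median of all 3.

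Protein synthesis and photosynthesis roles took in 66 of the 297 genes (22.2%). Among 123 genes sorted into 13 roles after the peaks had been seen, 32 coded for ribosomal proteins (41 peaks), 15 for photosystem, antenna or thylakoid electron transport proteins (18 peaks), 13 for chaperones (20 peaks), 10 for parts of the ubiquitin and proteasome system (13 peaks) and 9 for enzymes of the Calvin cycle or photorespiration (16 peaks). The remaining 174 genes were given no role. Smaller groups were nitrogen assimilation (7 genes), sulfur and methyl-group metabolism (6), translation factors (5), chlorophyll synthesis (5) and proton pumps (4).

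A count by words in RefSeq gene names, which 198 of the 297 genes have, allowed a comparison with other genes, although it caught fewer genes than the roles did. Photosynthesis words stood in 11 names (5.56%), against 1.08% of all tested genes with such names, but against 6.40% of genes at or above 72.2 RPKM, the lower quartile of the genes of shared peaks. Ribosomal protein words stood in 8 (4.04%), against 0.885% and 6.005%. Protein kinase words stood in 11 (5.56%), against 6.24% and 2.61%, and chaperone words in 7 (3.54%), against 0.761% and 1.17%. For ubiquitin or proteasome words it was 6 (3.03%), against 2.74% and 2.35%. For cytoskeleton or membrane traffic words it was 7 (3.54%), against 2.28% and 3.00%. Transcription factor words stood in 1 (0.505%), against 4.83% and 1.96%.

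As a description, the peaks of photosynthesis genes ranked high in the tmk4 list and low in the 35S lists. The median percentiles were 62.9, 13.5 and 19.3 for photosystem and antenna genes in the tmk4, 35S:FIP37 and 35S:FIP373A lists, and 65.1, 18.9 and 18.6 for Calvin cycle or photorespiration genes. In PSAO, a subunit of photosystem I, the peak scored 4.63, 1.39 and 1.45. In TLP18.3, a thylakoid lumen protein of photosystem II repair, it scored 17.9, 1.59 and 1.79.

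Ribosomal protein peaks ranked near the middle in each list, with median percentiles of 46.7, 39.6 and 41.2. Chaperone peaks ranked low in each (29.1, 34.7 and 20.4). The 4 peaks of actin and tubulin genes (ACT2, TUBB6, TUBA3 and TUBB3) ranked above the middle in each (66.5, 59.0 and 79.0). Photosystem genes also had the highest RNA level of the 13 roles, with a median of 1022 RPKM, and the part of RNA level in the score ranks was not tested. Tubulin, antenna, histone, ubiquitin and ribosomal protein genes have near-identical copies, between which the authors' assignment of reads is uncertain.

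**Figure D1:**
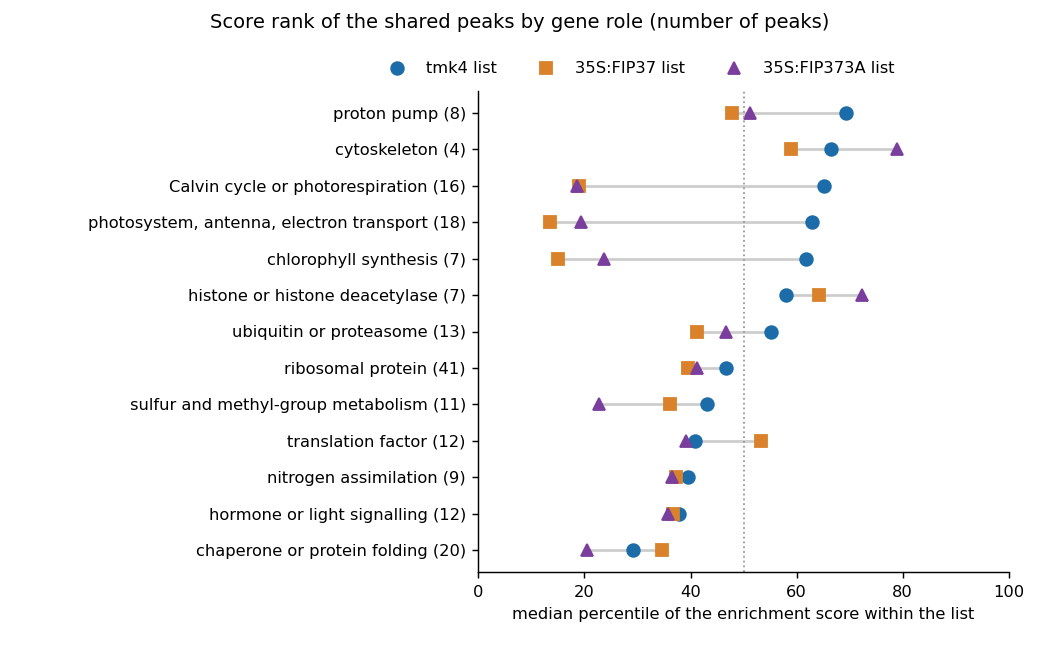
Median percentile of the authors' enrichment score (horizontal axis, 0 to 100 within each list) for shared peaks of 13 gene roles, with the number of peaks in brackets; circles stand for the tmk4 list, squares for 35S:FIP37 and triangles for 35S:FIP373A, and the dotted line marks the middle of a list. Photosystem, Calvin cycle and chlorophyll synthesis peaks stand at 61.9 to 65.1 in the tmk4 list and at 13.5 to 23.7 in the 35S lists, while ribosomal protein peaks stand at 39.6 to 46.7 in all 3.

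Of 104 tested genes on the lists of auxin and m6A genes, 1 (0.962%) held a shared peak, against 292 of 18072 tested genes (1.62%), a share near the background. Of 25 genes of the m6A machinery none held a shared peak, although ECT3, a reader, FIP37 and HIZ2 held tmk4 peaks and ECT2, another reader, held a peak in both 35S lists. Of 25 auxin biosynthesis genes none held a tmk4 peak at all, and NIT1 and TSB1 held peaks in both 35S lists. The lists of auxin perception and ARF (26 genes), auxin transport (17) and the circadian clock (15) held no shared peak either. Of their genes, ARF2 and TOC1 held a tmk4 peak. ARF2, LAX1, PIN3, PIN4 and PIN7 held peaks in both 35S lists. Among 29 Aux/IAA genes, which code for repressors of the auxin response, the exception was IAA2. Among 12 light signalling genes it was CRY2, a blue light receptor.

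The IAA2 peak lay at chr3:8181646-8181845 and scored 5.56, 3.01 and 2.84, at percentiles 71.3, 73.7 and 68.2, and overlapped no wild-type peak. The CRY2 peak lay at chr1:1186040-1186139, scored 3.85, 1.99 and 2.34, and overlapped none either. Among other hormone genes, EIN3, a transcription factor of ethylene signalling, held 2 shared peaks, of which 1 overlapped all 4 wild-type lists.

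Shared peaks lay in abundant transcripts. The median RNA level of their genes over the 12 libraries was 142 RPKM, against 31.6 for 795 genes with other tmk4 peaks only and 9.52 for all 18072 genes tested. Of the 297 genes, 257 (86.5%) were in the top decile of tested genes. The part of RNA level in the calling of peaks was not tested, and in whole seedlings fewer cells of a type and less RNA per cell cannot be told apart. The share of tmk4 peaks that were shared climbed with RNA level, from 2.41% (95% Wilson interval 1.27 to 4.52) in the lowest quintile to 3.02%, 15.1%, 34.0% and 53.0% (47.9 to 58.1) in the highest. Most abundant genes held none: of 1334 genes at or above 72.2 RPKM, 223 (16.7%) held a shared peak.

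LHCB1.3, a light-harvesting protein gene, was the most abundant, at 14498, 14641 and 13764 RPKM in wild-type mock, and its peak scored 1.71, 1.41 and 1.54. Next came PSBO1 of the oxygen-evolving complex, at 2347, 2033 and 1932, and RCA, the activase of Rubisco, at 1470.4, 961 and 1090.1. LHCA2, PSAF, AZI1, LHCA4 and AT3G15450 completed the first 8, with means over 12 libraries between 1620 and 2012 for all 5. At the other end 5 genes stood under 1 RPKM although 3 lists placed a peak there. SVB, FdC2 and the antenna gene LHB1B2 are listed at 0 in every library. TUFA, the plastid elongation factor Tu, is listed at 0 in 10 libraries, and CWLP averaged 0.595. A value of 0 in this table can be a failed estimate, and these 5 genes were left out of the tests.

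In each group of RNA libraries the median level of the 297 genes was close to that of the others: 148 RPKM in wild-type mock, 141 in wild-type NAA, 133 in fip37 LEC1:FIP37 mock and 126 in fip37 LEC1:FIP37 NAA. The single libraries ran from 117 to 153. Together these genes held between 14.5% and 17.8% of the summed RPKM of a library.

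Overlap with the wild-type lists was partial. Of the 394 peaks, 169 (42.9%, interval 38.1 to 47.8) overlapped at least 1 wild-type peak, against 47.3% (44.7 to 49.8) of the 1441 other tmk4 peaks. Another 225 (57.1%) overlapped none, and 77 (19.5%, 15.9 to 23.7) overlapped all 4 lists, against 19.4%. The intervals overlap in these comparisons. They cover counting error only, and no test was made over peaks. The wild-type lists were called by MACS per replicate, with at most 1 duplicate tag per site. The caller of the other lists is not given. A missing overlap therefore does not show that wild type lacked m6A there, and the part of peak calling in the overlap was not tested.

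List by list, 27.2% and 36.04% of the shared peaks overlapped the 2 mock lists and 24.6% and 35.0% the 2 NAA lists. For the other tmk4 peaks the shares were 34.2%, 38.1%, 27.1% and 34.9%. For the shared peaks the replicates of 1 treatment lay farther apart than mock and NAA at the same replicate number, and for the other tmk4 peaks this was not so in replicate 1. Both mock lists held 98 shared peaks (24.9%) and both NAA lists 90 (22.8%). Only 9 lay in both mock lists and in no NAA list, among them 2 of HSP90-3 and 1 of ROC4. Another 4 lay in both NAA lists and no mock list: 2 of LAP1, 1 of RPL36B and 1 of PER42.

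Where wild type had a peak at these places, it ranked low in its list. The median percentile of its fold enrichment over input within the list was between 22.6 and 27.8 in the 4 lists, against 41.3 to 45.6 at other tmk4 peaks that overlapped a wild-type peak. These ranks were not split by RNA level, which was higher in genes of shared peaks, and its part in them was not tested. Overlap moved with RNA level. In the highest quintile of RNA level 33.0% of the shared and 30.2% of the other tmk4 peaks overlapped a wild-type peak. In the quintile below it the shares were 50.4% (41.8 to 59.0) and 35.0% (29.3 to 41.2), and in the middle quintile 58.2% and 46.3%. In quintile 2 they were 63.6% of 11 shared and 55.2% of 353 other peaks, and in the lowest quintile 33.3% of 9 and 56.6% of 364. The shared peaks thus had the higher share in each quintile except the lowest, and the lower share over all, with 194 of them in the highest quintile. The intervals were apart in the quintile below the highest and overlapped in the others.

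Among the 77 peaks present in all 4 wild-type lists were those of ARF1, here an ADP-ribosylation factor and not an auxin response factor, and PAP26, with tmk4 scores of 13.1 and 11.5. VHA-A, the catalytic subunit of the vacuolar proton pump, was another, with 9.33, as was HDA19, a histone deacetylase, with 6.86. By role, 24 of 41 ribosomal protein peaks and 13 of 20 chaperone peaks overlapped a wild-type list, against 5 of 18 photosystem and 3 of 16 Calvin cycle peaks. The median RNA levels of these roles were 203, 95.9, 1022 and 436 RPKM, and some peaks share a gene. The part of RNA level in these shares was not tested.

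**Figure D2:**
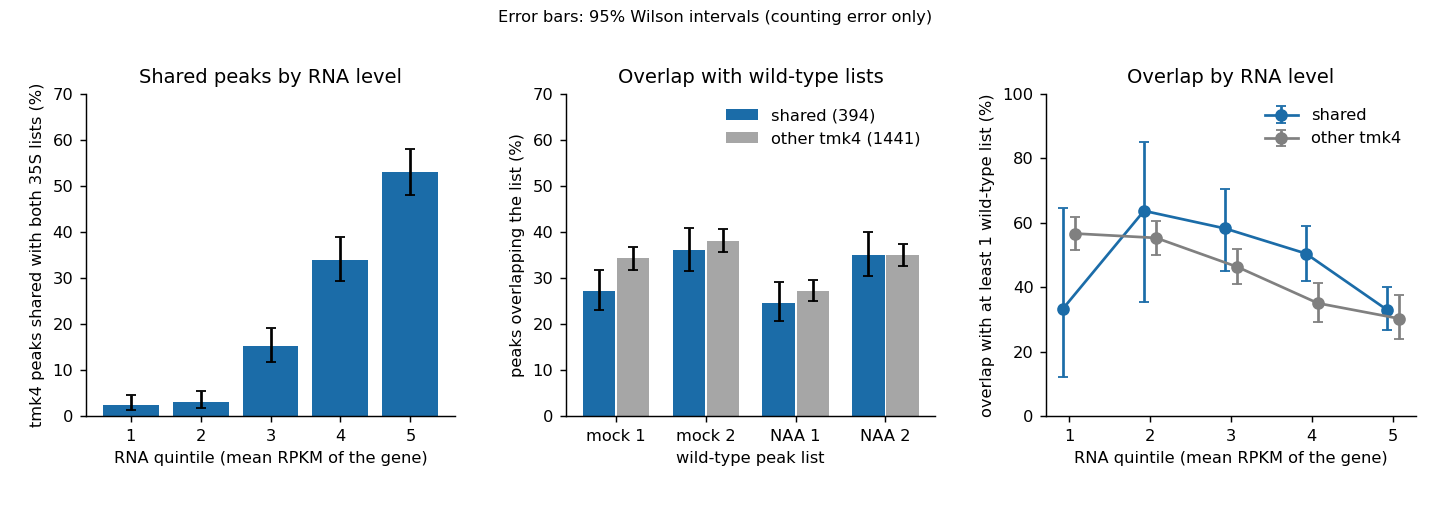
Left, percentage of tmk4 peaks shared with both 35S lists in quintiles of the mean RPKM of the gene (1 lowest, 5 highest); middle, percentage of shared and other tmk4 peaks that overlap each wild-type list; right, percentage that overlap at least 1 wild-type list by RNA quintile; bars and whiskers are 95% Wilson intervals. Sharing climbs from 2.41% to 53.0% with RNA level, and overlap with wild type is 33.0% for shared and 30.2% for other tmk4 peaks in the highest quintile.

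The nearest wild-type summit lay mostly at the peak or towards the 3' end. It was the nearest on the chromosome in genomic distance, without regard to gene, so it can lie in a neighbouring gene. A summit within 2000 bp was found for 290 of the 394 peaks (73.6%), against 82.4% of the others, and for 170 it was within 200 bp. Of the 290, 105 (36.2%) had it more than 200 bp downstream along the gene strand and 15 (5.17%) more than 200 bp upstream. For other tmk4 peaks these shares were 30.9% and 14.3%.

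**Figure D3:**
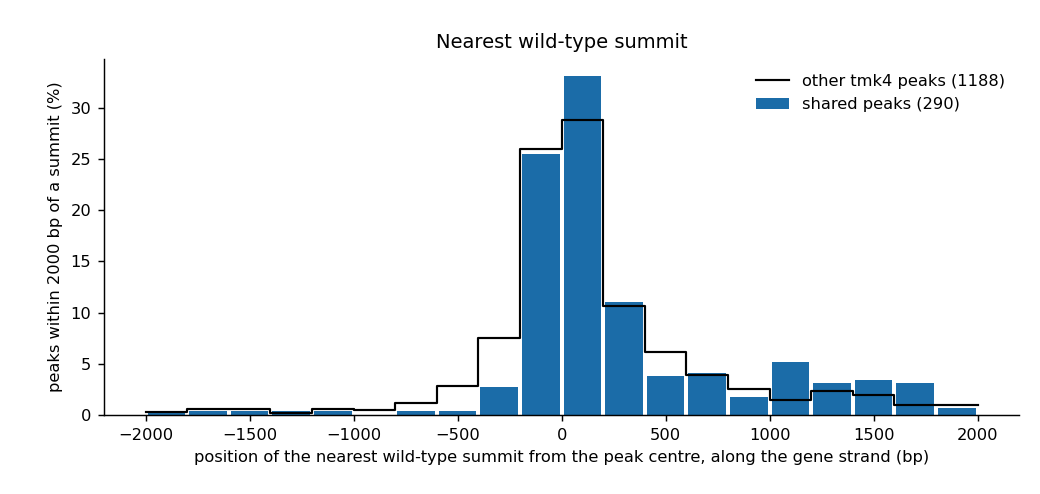
Position of the nearest wild-type summit from the centre of the peak along the gene strand (bp, bins of 200 bp, positive is towards the 3' end) as a percentage of peaks with a summit within 2000 bp; bars are 290 shared peaks and the line 1188 other tmk4 peaks. Beyond 200 bp, 36.2% of the shared peaks have the summit downstream and 5.17% upstream. The summit can lie in a neighbouring gene.

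An asymmetry towards the 3' end also showed inside genes with several shared peaks. Of the 297 genes 223 held 1, 57 held 2 and 17 held 3 or more. In these 74 genes the shared peak nearest the 3' end overlapped a wild-type peak in 47 of 74 cases (63.5%, interval 52.1 to 73.6). Those farther upstream did so in 14 of 97 cases (14.4%, 8.80 to 22.8). Scores hardly separated them, with tmk4 medians of 3.26 and 3.00 and 35S:FIP37 medians of 2.104 and 2.078. In 280 genes with several tmk4 peaks and no shared one, the shares were 67.1% (61.4 to 72.4) nearest the 3' end and 38.3% (34.1 to 42.7) farther upstream. This comparison was chosen after the peaks were seen, and peaks of 1 gene share their RNA.

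PER42, a cell wall peroxidase gene on the minus strand of chromosome 4, held 5 shared peaks. The one nearest the 3' end, at chr4:11646388-11646437, overlapped all 4 wild-type lists and scored 1.95, 2.80 and 2.27. The next, at chr4:11646538-11646637, overlapped 2 lists, and the 3 farther upstream, up to chr4:11648245-11648394, overlapped none. CLPC1, the chaperone of the plastid Clp protease, also held 5, of which the one nearest the 3' end, at chr5:20715665-20715864, overlapped 2 wild-type lists and the other 4 none. LOS1, an elongation factor of translation, held 4, and again the overlap with wild type, in 3 lists, was with the one nearest the 3' end, at chr1:20968142-20968341, whose tmk4 score of 4.10 was above the 1.94 to 2.32 of the rest. PRK, a Calvin cycle kinase, held 3, of which the last along the gene overlapped 3 lists. RCA held 4 along 1 gene, with tmk4 scores of 1.85 to 2.85, and none overlapped a wild-type peak.

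Transcripts of these genes were then compared between the RNA-seq groups, with limma on log2(RPKM + 1) over all 18072 genes and Benjamini-Hochberg adjustment. Of the 297 genes, 292 passed the filter of a mean of 1 RPKM. With NAA in wild type, 3 of the 292 rose and 17 fell, 6.85% in all, against 8.35% of all genes tested (3.35% higher, 5% lower) and 10.6% of the genes at or above 72.2 RPKM. The median log2 fold change was -0.15, against -0.06 over all genes tested. The lower share, 5.82%, was thus near the background, with 6.37% lower among those abundant genes. The higher share, 1.03% from 3 genes, was below it, with 4.2% higher among those abundant genes. This split moved with the scaling, as given below.

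IAA2, the auxin-induced repressor gene, was at 191, 213 and 248 RPKM with mock and 617, 577 and 404 with NAA in wild type. All NAA libraries were above all mock libraries, with a log2 fold change of 1.27 (SE 0.19, limma adjusted p = 0.00199). In libraries labelled fip37 LEC1:FIP37 it was at 116, 106 and 111 with mock and 165, 259.6 and 209.6 with NAA, which was 0.90 (SE 0.19, limma adjusted p = 0.0757) and did not pass. NAC081, a stress-linked transcription factor gene, was at 82.2, 89.1 and 87.6 with mock and 179, 150.3 and 381 with NAA in wild type, a rise of 1.32 (SE 0.26, limma adjusted p = 0.0107). The third that rose was ATGR1, a glutathione reductase gene, with 0.52 (SE 0.13, limma adjusted p = 0.0304).

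XYL1, an alpha-xylosidase gene of cell wall xyloglucan, fell from 191, 192 and 248 RPKM to 59.97, 42.8 and 113 in wild type, a log2 fold change of -1.64 (SE 0.28, limma adjusted p = 0.00432). TIP1-2 went from 1460.1, 1634 and 1557 to 481, 487 and 955, which was -1.35 (SE 0.22, limma adjusted p = 0.00371). The third NAA library was the highest of its group in both genes and still lay below every mock library. DIM, an enzyme gene of brassinosteroid synthesis, fell, with -1.12 (SE 0.22, limma adjusted p = 0.0108), as did PIP1B, with -0.99 (SE 0.25, limma adjusted p = 0.0296), and PER42, with -0.90 (SE 0.17, limma adjusted p = 0.00941), again without overlap between the groups. The call of PIP1B was lost in 7 of 17 alternatives, with limma adjusted p up to 0.115, and that of ATGR1 in 4. Other genes that fell included CHLP and CPX1 of chlorophyll synthesis and BGLU23, the beta-glucosidase PYK10 of roots.

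The number of calls moved with single libraries. Without replicate 3 of wild type with NAA, 81 of the genes of shared peaks passed in place of 20 (17 higher, 64 lower). Over all 18072 genes tested, 4119 then passed in place of 1509 (1943 higher, 2176 lower). Leaving out the third wild-type mock library left 4, and leaving out the first or second mock library or the second NAA library left 8, 10 and 6. Over all genes tested these settings left 477, 651, 632 and 679. With median-ratio scaling the split of the calls was 7 higher and 9 lower, and with quantile normalization 7 higher and 42 lower. Over all genes tested the splits were 872 higher and 683 lower, and 821 higher and 1042 lower.

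With NAA in libraries labelled fip37 LEC1:FIP37 no gene of a shared peak passed, against 0.437% of all genes tested, and 6 were higher and 23 lower at an unadjusted p under 0.05 in limma. With median-ratio scaling 1 passed, and 106 of all genes tested. The difference of the NAA effects between the genotypes passed for 1 gene, against 1.69% of all genes tested (1.06% lower). This was GAPC1, a cytosolic glyceraldehyde-3-phosphate dehydrogenase gene, whose peaks lay at chr3:1081849-1081992 and chr3:1083130-1083279. In wild type it was at 227, 192 and 174 RPKM with mock and 252, 249 and 281 with NAA, and in libraries labelled fip37 LEC1:FIP37 at 418, 419 and 435 and 308, 337 and 322. The NAA libraries were higher in wild type and lower in the other genotype, without overlap, and the difference was -0.80 (SE 0.16, limma adjusted p = 0.0353). It did not pass in 13 of 17 alternatives. Alone, the NAA effect on GAPC1 passed in neither genotype. That effect was 0.40 (SE 0.12, limma adjusted p = 0.0516) in wild type and -0.40 (SE 0.12, limma adjusted p = 0.243) in the other genotype.

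More genes differed between the genotypes. Between libraries labelled fip37 LEC1:FIP37 and wild type under mock, 136 of the 292 genes passed (46.6%), 50 higher and 86 lower. Over all genes tested 38.8% passed (15.3% higher, 23.5% lower), and among genes at or above 72.2 RPKM 50.9% did, so the share lay between the backgrounds. With quantile normalization the split was 66 higher and 75 lower, and over all genes tested 3589 higher and 4217 lower. With NAA in both genotypes 144 passed (49.3%), 66 higher and 78 lower, against 43.8% of all genes (19.2% higher, 24.6% lower) and 54.6% of the abundant ones. Here quantile normalization turned the split to 102 higher and 52 lower. Over all genes tested the split also moved, from 3466 higher and 4454 lower to 4326 higher and 4283 lower. The median log2 fold changes were -0.06 and -0.02.

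GSTF7, a stress-induced glutathione transferase gene, had the largest rise under mock. It was at 224, 207 and 176 RPKM in wild type and 914, 1503 and 1321 in libraries labelled fip37 LEC1:FIP37, without overlap, a log2 fold change of 2.59 (SE 0.26, limma adjusted p = 2.47e-05). PSAT1 of serine synthesis rose by 1.80 (SE 0.31, limma adjusted p = 0.000754). ATGSR2, a cytosolic glutamine synthetase gene, rose by 1.71 (SE 0.14, limma adjusted p = 6.75e-06), and PAT1 of tryptophan synthesis by 1.58 (SE 0.20, limma adjusted p = 0.000115). RCA, which held 4 shared peaks, rose by 1.41 (SE 0.28, limma adjusted p = 0.00206).

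NIA1, a nitrate reductase gene, had the largest fall, from 221, 246 and 338 RPKM to 61.8, 30.4 and 28.7, a log2 fold change of -2.77 (SE 0.58, limma adjusted p = 0.00286). HMG1, an enzyme gene of isoprenoid synthesis with 3 shared peaks, fell from 306, 356 and 384 to 124, 105 and 97.97, which was -1.67 (SE 0.19, limma adjusted p = 5.25e-05). The groups did not overlap in either gene. Also lower were AT5G44020 with -1.55 (SE 0.20, limma adjusted p = 0.000118), PUP14, a purine and cytokinin carrier gene, with -1.49 (SE 0.14, limma adjusted p = 1.46e-05), and DIM with -1.46 (SE 0.22, limma adjusted p = 0.000364). CRY2 fell, with -0.59 (SE 0.12, limma adjusted p = 0.00229), and IAA2 fell, with -0.96 (SE 0.19, limma adjusted p = 0.00189).

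With NAA the largest rises were in PBP1, which codes for a binding partner of PYK10, with 1.77 (SE 0.14, limma adjusted p = 4.13e-06), and in GSTF7 with 1.73 (SE 0.26, limma adjusted p = 0.000281). PDF1 of the epidermis, the metallothionein gene MT3 and BGLU23 followed, with 1.65 (SE 0.26, limma adjusted p = 0.000322), 1.57 (SE 0.17, limma adjusted p = 2.98e-05) and 1.51 (SE 0.16, limma adjusted p = 2.79e-05). BGLU23 is also a root marker, at 229, 265 and 317 RPKM in wild type and 719, 807 and 768 in libraries labelled fip37 LEC1:FIP37. The other root markers stayed low (SCR at 11.7 to 19.0 RPKM), and the part of root tissue in these values was not tested.

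The largest falls with NAA were in NIA1 with -2.31 (SE 0.58, limma adjusted p = 0.00711), where the third wild-type NAA library was at 557 RPKM and the other 2 at 78.8 and 102, and in AT4G34150 with -1.71 (SE 0.18, limma adjusted p = 1.87e-05). XTH24, a cell wall xyloglucan enzyme gene, followed with -1.70 (SE 0.24, limma adjusted p = 0.000162), then GLN1-1, a cytosolic glutamine synthetase gene, with -1.51 (SE 0.38, limma adjusted p = 0.0066), and the chaperone gene ATJ8 with -1.49 (SE 0.21, limma adjusted p = 0.000148).

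**Figure D4:**
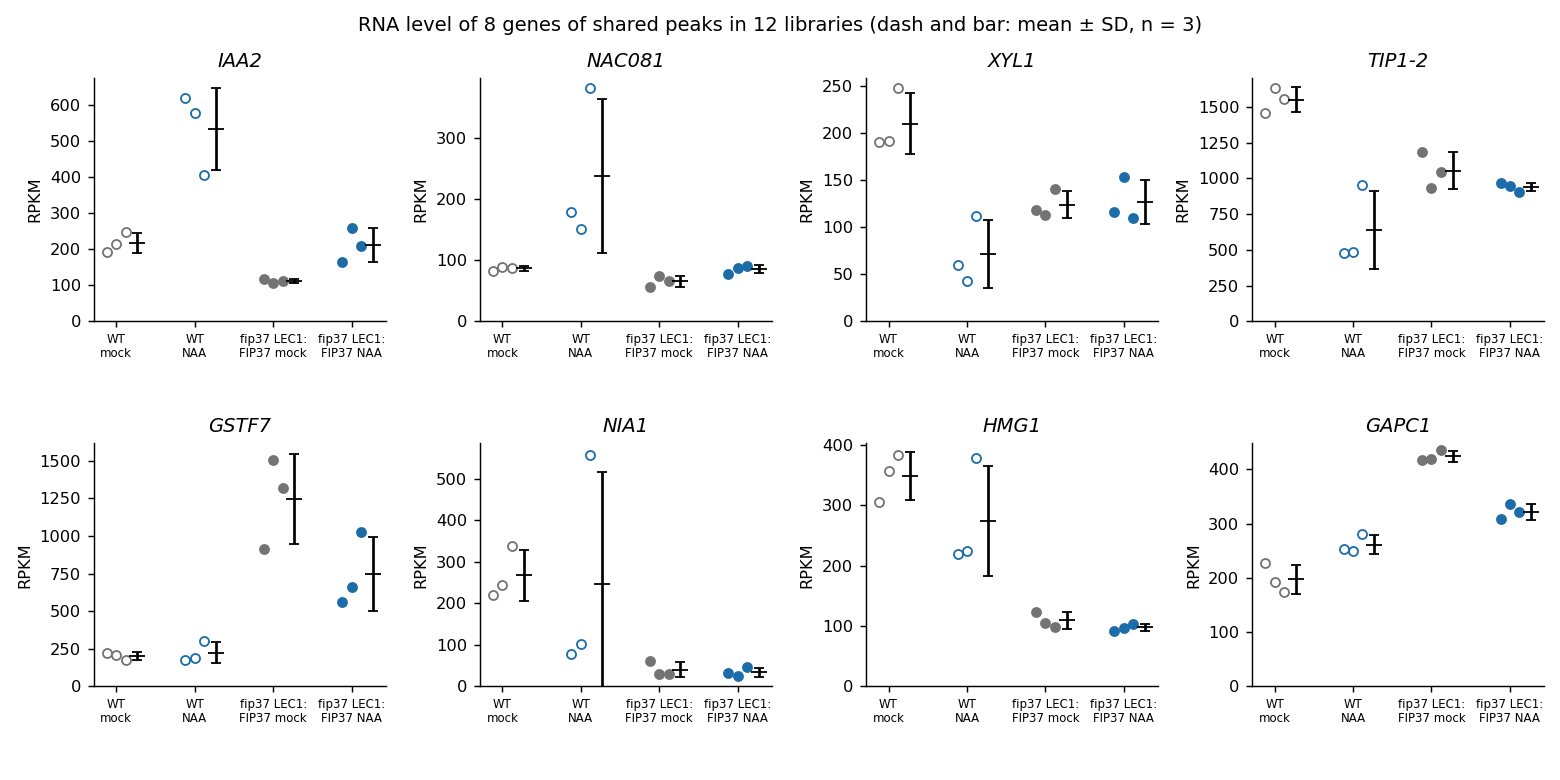
RPKM (vertical axis, linear from 0) of 8 genes with shared peaks in the 12 RNA-seq libraries; open circles are wild type, filled circles fip37 LEC1:FIP37, grey is mock and blue NAA, and the dash with its bar is the mean ± SD (n = 3). The third wild-type NAA library lies apart from the other 2 in NAC081, TIP1-2, NIA1 and HMG1.

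By role, photosystem and antenna genes moved both ways under mock, with 7 of 14 higher and 3 lower, against 17.0% higher and 33.9% lower among genes at or above 72.2 RPKM. LHCB3 was at 1206, 978 and 888 RPKM in wild type and 2174, 1854 and 2058 in libraries labelled fip37 LEC1:FIP37, a rise of 0.99 (SE 0.16, limma adjusted p = 0.000445), and ATPD, a subunit of the plastid ATP synthase, rose by 0.90 (SE 0.18, limma adjusted p = 0.00179). PSAE2 fell, with -0.81 (SE 0.15, limma adjusted p = 0.00122). Of the 4 actin and tubulin genes 3 fell, and 4 of 10 ubiquitin and proteasome genes fell and none rose, the last a share near that background. These groups are small and were drawn up after the peaks were seen.

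Most ribosomal protein genes did not pass in either comparison between libraries labelled fip37 LEC1:FIP37 and wild type. Of 32 genes, 12 were lower and none higher under mock, with a median log2 fold change of -0.25 over the 32, and 11 were higher and 3 lower with NAA, with a median of 0.18. The 12 lower under mock were near the background of abundant genes, which with NAA was 21.8% higher and 32.8% lower. RPS14A was at 159, 160.3 and 152 RPKM in wild-type mock and 81.2, 84.3 and 69.6 in the other genotype, and it fell in both comparisons, with -0.999 (SE 0.13, limma adjusted p = 0.000142) under mock and -0.54 (SE 0.13, limma adjusted p = 0.00636) with NAA. RPS7B and RPS24B also fell in both. RPS6A was at 217, 177 and 158 RPKM in wild-type NAA and 259, 305 and 291 in the other genotype, a rise of 0.63 (SE 0.13, limma adjusted p = 0.00173), while under mock it was 0.30 (SE 0.13, limma adjusted p = 0.0783) and did not pass.

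The difference of the NAA effects had a median of 0.39 over these 32 genes, but 0 of them passed in limma (7 higher and 1 lower when replicate 3 of wild type with NAA was left out, 5 higher with quantile normalization). Over all genes tested these settings called 1060 higher and 1171 lower, and 257 higher and 236 lower. NAA itself called 1 of the 32 in wild type and 0 in the other genotype. Without the second wild-type NAA library the count with NAA was 4 higher and 4 lower, without the second fip37 LEC1:FIP37 NAA library 4 higher and 3 lower, and without the third 5 higher and 2 lower.

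**Figure D5:**
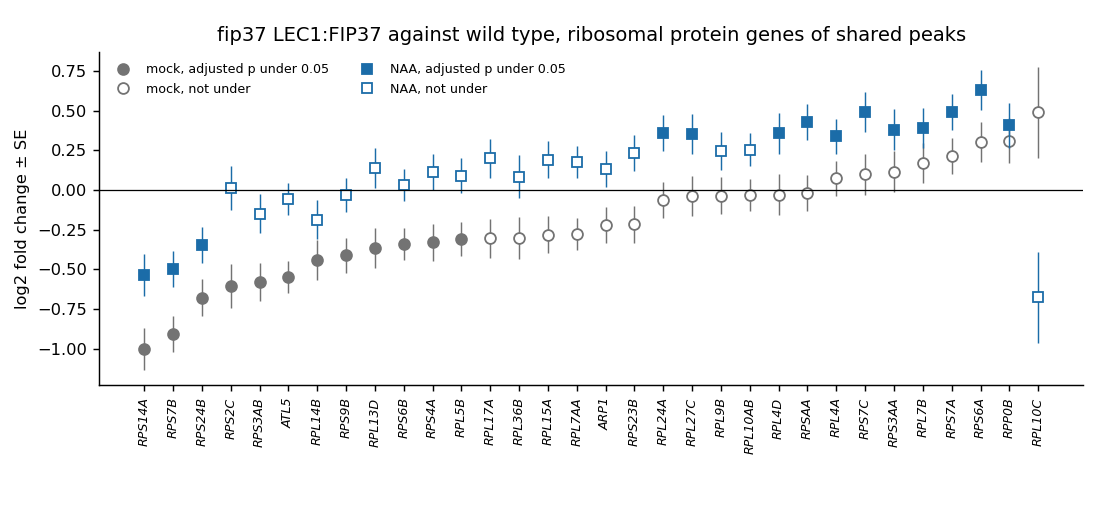
log2 fold change ± SE between libraries labelled fip37 LEC1:FIP37 and wild type for 32 ribosomal protein genes with shared peaks, ordered by the value under mock; grey circles are mock, blue squares NAA, and filled symbols have a limma adjusted p under 0.05. Under mock 12 genes are lower and 0 higher, with NAA 3 are lower and 11 higher.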

How the data were processed

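RNA of whole seedlings was measured by m6A-seq in 10 immunoprecipitated libraries with inputs and by RNA-seq in 12 libraries, 32 libraries in all. Each wild-type replicate has its own peak list, called by the authors with MACS 2.2.6 over the matching input (fragments of 200 nt, at most 1 duplicate tag per site, q under 0.05, per the file headers). As deposited, such a list holds the pileup signal, the -log10 p-value and -log10 q-value and the fold enrichment of each peak. The headers give 6420713 to 6714976 immunoprecipitated tags kept per wild-type replicate, from 22553583 to 24681870 before duplicates were removed. The lists of tmk4-1, 35S:FIP37 and 35S:FIP373A are single lists of exonic peaks on a 50 nt grid, deposited with an enrichment score read as a linear ratio and a column whose values were read as a p-value. Not given in the sources used here were their caller, its settings and the pooling of replicates. The authors deposited RPKM values, made from reads that, per the submitters' processing notes, STAR 2.5.3a aligned to the TAIR10 genome. The counting tool and the read totals were likewise not given in the sources used here, and these values carry no counting interval. The series' design text calls the wild-type replicates biological, and the labels do not say so of the other groups, whose p-values measure the spread between these libraries.

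Peaks were compared as spans from start to end, with an overlap of 1 bp or more. Wild-type overlap is given with 95% Wilson intervals and without a test. Genes were compared with limma 3.58.1 (R 4.3.3, limma-trend) on log2(RPKM + 1), which understates changes of low genes, in 1 model of 12 libraries. A mean of 1 RPKM or more was required (18072 of 34262 genes), and calls used a Benjamini-Hochberg adjusted p under 0.05. The fit was tested on simulated data. Peaks were handled in Python 3.11.15 with pandas 2.3.3 and SciPy 1.17.1. Coordinates follow the deposited files (TAIR10, 1-based). Names came from the deposited peak lists, or from RefSeq symbols where the lists gave no usable name. RefSeq matched 297 of 297 genes, and word classes were run on RefSeq names in place of product names. The peaks, the gene lists and the tests were chosen with earlier results of these data known, and the 13 roles after the members were seen. Genes named in the text are the 10 highest and 5 lowest peaks by mean percentile, list members, the 8 most and 4 least abundant genes, up to 5 called genes per direction and contrast, the 5 genes with most peaks, FIP37, TMK4 and the edge cases, and any other gene named was chosen after its values were seen. Replicate numbers did not pair the libraries (correlations of deviations from -0.10 to 0.40). Alternatives covered the overlap, the wild-type threshold, the pseudocount, the filter, 2 scalings, a replicate block and each library left out. Peak sequences and coverage tracks were not used here. Some results for single genes are not reported here.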

Additional observations from a re-analysis of the deposited data

Results flagged for a closer look

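GAPC1 was the only gene of a shared peak, in the fit as reported, whose NAA effect differed between the genotypes by a test of the difference itself. The NAA effect in the libraries labelled fip37 LEC1:FIP37 minus that in wild type was -0.80 on the log2 scale (SE 0.16, limma adjusted p = 0.0353). The NAA and mock libraries did not overlap in either genotype, but the NAA effect alone passed in neither. The call was lost in 13 of 17 alternatives, median-ratio scaling among them, with limma adjusted p up to 0.115.

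The tmk4 list held 30 peaks on the organelle genomes, outside the chromosomes used here, 23 on the plastid and 7 on the mitochondrial genome. Neither 35S list held any. Their enrichment scores ran from 1.29 to 5.50. With 1 list per genotype the difference between the lists was not tested.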

How the results depend on the processing

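The number of shared peaks was 163 with an overlap of at least 100 bp, which the 132 shared peaks of 50 bp cannot reach. It was 93 with peaks at or above the median enrichment score of their own list, and 385 with an overlap of 50% of the shorter peak. With wild-type peaks at or above the median -log10 q-value of their list, the shares in both mock, both NAA and all 4 lists were 8.12%, 7.61% and 4.57%, and an overlap of 50% of the shorter peak gave 20.8% in both mock lists. Without genes in the highest quintile of RNA level, chosen after seeing the data, 27.5% lay in all 4 lists. With 1 replicate list in place of both, the shares were 27.2% to 36.04% for mock and 24.6% to 35.0% for NAA. Leaving out 1 library moved the median RPKM to between 149 and 152 in wild-type mock, 135 and 144 in wild-type NAA, 130 and 136 in fip37 LEC1:FIP37 mock and 116 and 129 in fip37 LEC1:FIP37 NAA.

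Called genes of shared peaks with NAA in wild type numbered 49 with quantile normalization and 4 to 81 with 1 library left out. With NAA in fip37 LEC1:FIP37 they numbered 1 with median-ratio scaling and 0 to 1 with 1 library left out. Between genotypes the counts with 1 library left out were 106 to 173 under mock and 109 to 157 with NAA. For the difference of the NAA effects they were 0 to 43 (43 without the third wild-type NAA library), 15 with quantile normalization, and 0 without the filter on low values. The replicate block gave 15, 0, 129, 137 and 0 for the 5 contrasts, in the order of NAA in wild type, NAA in fip37 LEC1:FIP37, genotype under mock, genotype with NAA and the difference. Over all genes tested it gave 1352, 64, 6810, 7744 and 264. With 1 library left out the counts over all genes were 477 to 4119, 31 to 201, 5185 to 8851, 6385 to 9112 and 68 to 2231. The 2231 came without the third wild-type NAA library. Quantile normalization called 1863 of all genes with NAA in wild type and 493 for the difference. The causes of these changes were not tested. Of 29 gene results named by rule, 24 kept their call under all 17 alternatives. The exceptions were GAPC1 (lost in 13), PIP1B (7), ATGR1 (4), DIM (1) and PER42 (1), the last pair without the third wild-type mock library. The planned motif shares and positions in gene parts were not run. The limits are the 1 list per genotype, the unlabelled treatment of the 35S lines, 2 or 3 replicates, and RPKM values without read totals. Another is that the caller is known for the wild-type lists only.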
